A study of Mus musculus with 41 samples.

Results

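The 8 genes followed here belong to the heterochronic, or developmental timing, class: Lin28a, Lin28b, Trim71, Hmga1, Hmga2, Igf2bp1, Igf2bp2 and Igf2bp3. They were taken by gene symbol from the deposited table, and 8 of its 24410 genes are members. All 8 had counts enough to be tested, among 15204 tested genes.

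LIN28A and LIN28B are RNA-binding proteins that block the maturation of let-7 microRNAs, and let-7 in turn represses the Lin28 transcripts, so that the pair forms a switch between early and late states. TRIM71, an RNA-binding ubiquitin ligase known from the worm timing gene lin-41, HMGA1 and HMGA2, architectural proteins that bind AT-rich DNA, and the IGF2BP proteins, which bind mRNAs and influence their stability and translation, are classical let-7 targets or partners of this switch. In neural progenitors these genes are known for high levels early in development and a decline as cells move towards later fates.

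The data were RNA sequencing libraries from mouse embryonic stem cells of the R1-iCas9 line, in which doxycycline induces Cas9. They were differentiated towards spinal cord neural progenitors with bFGF, the GSK3β inhibitor CHIR99021, retinoic acid (RA) and a Smoothened agonist (SAG). Every group, controls included, carried inducible Cas9, was exposed to doxycycline and was transfected with guides at day 0. The groups received 5 pooled guides against Eed or Ezh2 (subunits of the PRC2 histone methyltransferase), Brd8 (a bromodomain protein of the TIP60 acetyltransferase complex) or Nr6a1 (an orphan nuclear receptor), or a non-targeting control guide (NT), and were collected at days 7, 9 and 11. The labels describe transfected pools of 1 cell line and give no editing rate, and they leave unsaid if the replicates are separate cultures, so p-values measure the spread between these libraries, which may be technical.

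There were 41 libraries in 15 groups, 11 groups of 3 and 4 groups of 2 (all 3 Nr6a1 groups and the Brd8 group of day 9), with 8581282 to 38240227 estimated counts each. No targeted gene was lower than in NT past the threshold at any day, and Ezh2 transcript was higher in the Ezh2 group at day 11 (log2 0.37 ± 0.09, adjusted p = 0.00736). A cut gene can keep its transcript, so this neither checks nor contradicts the labels, and the groups are therefore named by label ("Eed-labelled" and so on) throughout. All 9 neural progenitor markers were detected in every library. NT replicate 3 and Eed-labelled replicate 3 at day 11 agreed less with their own groups than any other library (best correlations of 0.939 and 0.945), and the differences of the 8 genes from NT at day 11 that were called are given without them as well. Where a call is said to be lost without several libraries, 1 library was left out at a time.

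All 9 mouse let-7 family microRNAs (let-7a to let-7g, let-7i and miR-98) hold the same seed, bases 2 to 8, and 4 of them are shown to display what is shared and what is not (RefSeq, GRCm38.p6, seed in capitals). Outside the seed the 4 differ at only a few positions.
mmu-let-7a-5p: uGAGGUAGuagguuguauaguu
mmu-let-7b-5p: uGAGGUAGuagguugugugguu
mmu-let-7i-5p: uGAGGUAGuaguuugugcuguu
mmu-miR-98-5p: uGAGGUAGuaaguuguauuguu

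The complement of that seed, CTACCTC, was searched on the transcript strand of the longest annotated 3′ UTR of each gene (GENCODE M21, GRCm38, the same assembly as mm10). It occurred in all 8 members, 21 times in total. Trim71, Hmga2, Igf2bp1 and Lin28b held 4 matches each, Lin28a held 2, and Hmga1, Igf2bp2 and Igf2bp3 held 1 each. In 13 of the 21 the match was followed by A, which makes it an 8-base match. Of 13848 tested genes with a 3′ UTR, 10.9% held at least 1 match and 0.0794% (11 genes) held 4 or more, and 4 of those 11 genes are members. UTR length differs between genes, and of the 1782 genes with a UTR within 20% of the length of that of Hmga2 (3014 bases), 0.168% held 4 or more. Among genes within 20% of their own UTR lengths, this share was 0.284% for Lin28b, 0.434% for Igf2bp1 and 0.618% for Trim71. For Lin28a 2.29% of such genes held 2 or more. For Hmga1, Igf2bp2 and Igf2bp3, 8.27%, 12.5% and 13.8% held at least 1, near the share over all genes.

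The 4 Trim71 sites (chr9:114512472-114512493, chr9:114512376-114512397, chr9:114509047-114509068 and chr9:114509021-114509042, minus strand, GRCm38) are printed because all 4 are 8-base matches. The last 2 start 26 bases apart.
Trim71 site 1: acattgcctaagtcCTACCTCA
Trim71 site 2: gtgataatttctatCTACCTCA
Trim71 site 3: ttagtatggattttCTACCTCA
Trim71 site 4: tggcaaaaagttgtCTACCTCA

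The 4 Hmga2 sites (chr10:120364224-120364245, chr10:120362987-120363008, chr10:120362549-120362570 and chr10:120361691-120361712, minus strand, GRCm38) are printed for comparison, since only the first, at base 58 of the UTR, is followed by A. A match to the seed is a description of the sequence and not a measured site of repression, and mature let-7 was not measured in these libraries.
Hmga2 site 1: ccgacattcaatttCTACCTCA
Hmga2 site 2: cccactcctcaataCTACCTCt
Hmga2 site 3: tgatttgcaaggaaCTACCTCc
Hmga2 site 4: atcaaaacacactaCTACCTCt

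All 8 genes fell in NT cells between day 7 and day 11, a set of declines that ranged from 2.10-fold for Igf2bp2 to 12.8-fold for Lin28a (edgeR quasi-likelihood test, adjusted p at most 2.92e-05). Of all tested genes, 23.3% fell in the same comparison. The median log2 change was -2.19 over the members and -0.00208 over all tested genes. Levels are given in CPM, the count scaled to library depth and by TMM, in replicate order. In these bulk libraries fewer cells of a type and less RNA per cell cannot be told apart.

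Lin28a, the let-7 blocking paralogue that uses terminal uridylation of the precursor, stood at 198, 199 and 180.4 CPM in NT cells at day 7, at 43.1, 54.7 and 50.0 CPM at day 9 and at 13.0, 12.2 and 20.1 CPM at day 11. Every library of a later day lay below every library of an earlier day. The log2 change from day 7 to day 11 was -3.68 ± 0.19 (adjusted p = 2.13e-18), and only 1.83% of tested genes had a lower value.

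Lin28b, its paralogue, stood at 89.2, 84.2 and 88.7 CPM at day 7, 36.7, 41 and 35.6 CPM at day 9 and 20.0, 15.4 and 16.7 CPM at day 11 in NT cells. The 3 days did not overlap, and the decline was 5.02-fold (log2 -2.33 ± 0.13, adjusted p = 3.33e-17).

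Trim71, whose UTR holds 4 matches of 8 bases, stood at 173, 179.7 and 183 CPM at day 7, 51.2, 52.1 and 42.4 CPM at day 9 and 16.0, 26.4 and 14.8 CPM at day 11. Its decline of 9.36-fold was next to that of Lin28a in size (log2 -3.23 ± 0.19, adjusted p = 4.08e-17). The 95% intervals of the log2 changes of Lin28a (-4.07 to -3.30) and Trim71 (-3.60 to -2.85) overlapped.

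Hmga2 followed another course. It stood at 228, 245 and 226 CPM at day 7, 148, 183 and 178 CPM at day 9 and 57.5, 66.8 and 34.5 CPM at day 11, so that most of its decline fell between days 9 and 11. From day 7 to day 9 it fell by log2 0.45 (adjusted p = 0.0134), and this call was lost without NT day 7 replicate 2 or NT day 9 replicate 1 (log2 -0.42 to -0.37, adjusted p = 0.0538 to 0.0933). From day 9 to day 11 the log2 change was -1.68 ± 0.15 (adjusted p = 6.91e-11).

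Igf2bp3 was also late. It stood at 340.5, 334 and 331 CPM at day 7, 297, 297 and 294 CPM at day 9 and 175, 148 and 155 CPM at day 11. Its change from day 7 to day 9 did not pass (log2 -0.18 ± 0.08, adjusted p = 0.094), whereas that from day 9 to day 11 was -0.89 ± 0.08 (adjusted p = 1.25e-10).

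Igf2bp1, the member with the most counts in NT cells, stood at 1062, 1024 and 981 CPM at day 7, 432, 521 and 457 CPM at day 9 and 213, 221 and 234 CPM at day 11. The days did not overlap and the steps were log2 -1.12 ± 0.09 and -1.08 ± 0.09. Igf2bp2, the family member known to persist longest in tissues, stood at 279, 267 and 283 CPM at day 7, 193, 212 and 192 CPM at day 9 and 135, 119.6 and 139 CPM at day 11. It fell by log2 1.07 in all.

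**Figure D1:**
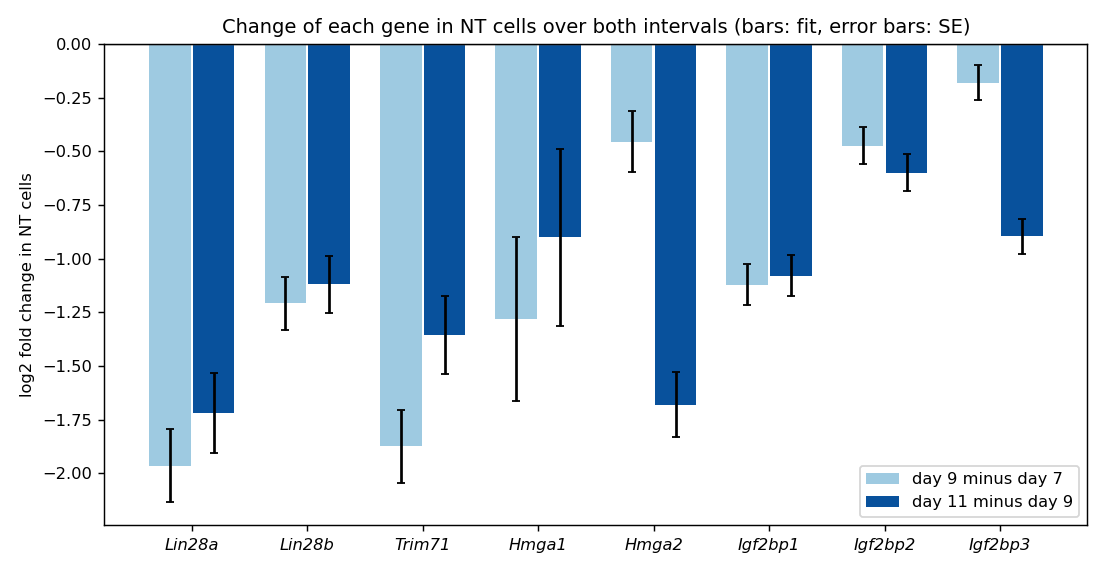
Log2 change of each gene (vertical axis) in NT cells from day 7 to day 9 (light bars) and from day 9 to day 11 (dark bars), 3 libraries a day; bars show the fitted change and error bars its SE. Hmga2 and Igf2bp3 have short first bars and long second bars, while Trim71 fell by 1.87 in the first interval and by 1.35 in the second.

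The share of the NT change on the log2 scale that was complete by day 9 was 58.0% for Trim71, 53.3% for Lin28a, 51.9% for Lin28b, 51.0% for Igf2bp1 and 44.1% for Igf2bp2. It was 21.3% for Hmga2 and 16.7% for Igf2bp3. From day 7 to day 9, 7 of the 8 members fell (all but Igf2bp3), beside 13.3% of tested genes, and from day 9 to day 11 again 7 of 8 (all but the Hmga1 row), beside 12.9%.

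Hmga1 (chr17:27556497-27563674, GRCm38) is the other gene of the high-mobility group A pair. Its row held fractional counts in all 41 libraries, so its values are uncertain. In NT cells the Hmga1 row stood at 52.6, 43.9 and 30.5 CPM at day 7, 19.9, 22.3 and 9.76 CPM at day 9 and 7.12, 16.8 and 4.23 CPM at day 11. Its highest library of day 11 lay within the range of day 9. The decline from day 7 to day 9 (-1.28 ± 0.38) was not called without NT day 7 replicate 1 or NT day 9 replicate 3 (log2 -1.09 to -1.01, adjusted p = 0.0612 to 0.0814), and that from day 9 to day 11 (-0.90 ± 0.41) was called only without NT day 11 replicate 2 (-1.60, adjusted p = 0.0115) among the fits that left out 1 library.

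Eed-labelled cells at day 11 held more of 7 of the 8 transcripts than NT cells, beside 13.3% of tested genes that were higher. Brd8-labelled cells held more of 5 (10.3% of tested genes), Ezh2-labelled cells more of 4 (5.22%), and Nr6a1-labelled cells differed in none (0.0789% of tested genes differed in either direction). For Nr6a1 at day 11, 3 members had an unadjusted p under 0.05 in edgeR, and DESeq2 also called 0. The 4 comparisons share the same 3 NT libraries. With Eed guides, 5 members had every library above every NT library, as had 17.4% of tested genes. Without NT replicate 2, Trim71 also passed with Brd8 guides (log2 0.66, adjusted p = 0.0163) and Ezh2 guides (log2 0.64, adjusted p = 0.0325).

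**Figure D2:**
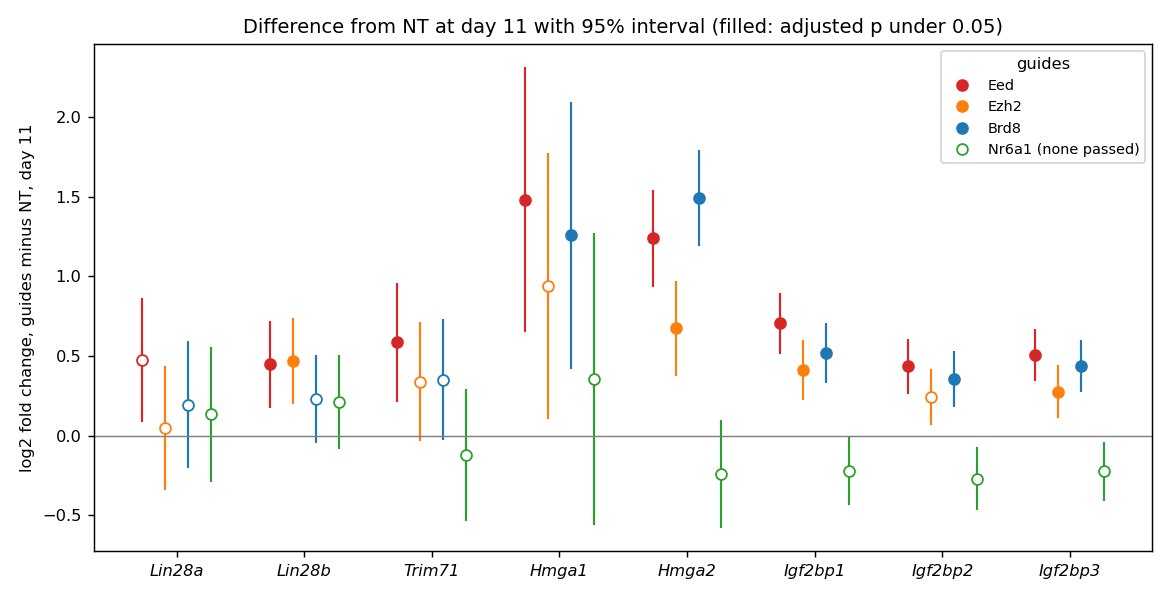
Log2 fold change against NT at day 11 (vertical axis) for each gene (horizontal axis) and each guide group (colours), with 95% intervals; filled points passed an adjusted p of 0.05 and open points did not. Hmga2 stands at 1.24 with Eed guides, 0.67 with Ezh2 guides and 1.49 with Brd8 guides, and every Nr6a1 point is open.

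Hmga2, the architectural factor with the late decline, differed most clearly. At day 11 it stood at 57.5, 66.8 and 34.5 CPM in NT, 122, 130.2 and 124 CPM in Eed-labelled, 182, 127 and 139.7 CPM in Brd8-labelled, 91.8, 82.6 and 80.0 CPM in Ezh2-labelled and 38.9 and 50.8 CPM in Nr6a1-labelled cells. Every Eed-, Brd8- and Ezh2-labelled library lay above every NT library, and the Nr6a1-labelled libraries lay among the NT libraries. The difference was 1.49 ± 0.15 on the log2 scale with Brd8 guides (2.82-fold, adjusted p = 3.1e-09).

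With Eed guides the Hmga2 difference was 1.24 ± 0.15 (2.36-fold, adjusted p = 5.98e-08), and with Ezh2 guides 0.67 ± 0.15 (1.59-fold, adjusted p = 0.00249). NT replicate 3 had the lowest Hmga2 of all day 11 libraries. Without the 2 libraries of low agreement the values were 1.27 for Brd8, 1.01 for Eed and 0.44 for Ezh2, and the Ezh2 call was lost (adjusted p = 0.0562), as it was without NT replicate 3 alone (adjusted p = 0.0547).

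Hmga1, an AT-hook protein that binds the minor groove of DNA in chromatin, stood at 7.12, 16.8 and 4.23 CPM in NT and at 23.6, 15.7 and 40.1 CPM in Eed-labelled, 25.5, 14.1 and 15.1 CPM in Ezh2-labelled and 22.9, 34.9 and 8.68 CPM in Brd8-labelled cells at day 11. The highest NT library lay within the range of each of these 3 groups, and the other 2 NT libraries lay below all 9 of their libraries. The difference was 1.48 ± 0.41 with Eed guides (adjusted p = 0.00684) and 1.26 ± 0.41 with Brd8 guides (adjusted p = 0.0289). Without the 2 libraries of low agreement neither passed, at 0.75 (adjusted p = 0.306) and 0.92 (adjusted p = 0.158). Singly, the Eed call was lost without NT replicate 3 or Eed-labelled replicate 3 (log2 1.08 to 1.14, adjusted p = 0.0662 to 0.0764). The Brd8 call was lost without NT replicates 1 or 3 or Brd8-labelled replicates 1 or 2 (log2 0.76 to 1.24, adjusted p = 0.0665 to 0.27), and in a fit of the compared groups only (adjusted p = 0.109). With Ezh2 guides it was 0.94 ± 0.41 (adjusted p = 0.17) and passed without NT replicate 2 (1.64, adjusted p = 0.0232).

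Igf2bp1, known for binding and stabilising mRNAs in embryonic tissue, stood at 213, 221 and 234 CPM in NT and at 341, 361 and 388 CPM in Eed-labelled, 276, 284 and 328 CPM in Ezh2-labelled and 343, 284 and 331 CPM in Brd8-labelled cells at day 11. None of these 9 libraries overlapped with NT. The differences were 0.70 ± 0.09 for Eed (adjusted p = 4.9e-07), 0.52 ± 0.09 for Brd8 (adjusted p = 9.48e-05) and 0.41 ± 0.09 for Ezh2 (adjusted p = 0.00347). All 3 passed in each of the 13 alternatives run for them.

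Igf2bp2 stood at 135, 119.6 and 139 CPM in NT, 164, 179 and 189.7 CPM in Eed-labelled and 171, 171 and 161 CPM in Brd8-labelled cells. The groups were apart, with differences of 0.43 ± 0.09 (adjusted p = 0.000214) and 0.35 ± 0.09 (adjusted p = 0.00298). With Ezh2 guides the libraries held 153, 159 and 155 CPM, also above NT, and the difference of 0.24 ± 0.09 did not pass (adjusted p = 0.0788).

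Igf2bp3, a family member best known from embryonic and tumour cells, stood at 175, 148 and 155 CPM in NT, 217, 203 and 259.6 CPM in Eed-labelled, 200.3, 209 and 237 CPM in Brd8-labelled and 197, 182 and 200.0 CPM in Ezh2-labelled cells. All 9 lay above the 3 NT libraries. The differences were 0.51 ± 0.08 (adjusted p = 1.1e-05), 0.44 ± 0.08 (adjusted p = 0.000133) and 0.28 ± 0.08 (adjusted p = 0.0264), and the Ezh2 call was lost without the 2 libraries of low agreement (0.25, adjusted p = 0.074) and without NT replicates 2 or 3 or Ezh2-labelled replicates 1 or 3 (log2 0.23 to 0.26, adjusted p = 0.0817 to 0.123). It was also lost in a fit of the compared groups only (adjusted p = 0.0972).

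Of the upstream members, Lin28a was not called in any group at day 11. It stood at 13.0, 12.2 and 20.1 CPM in NT, 18.3, 18.8 and 26.4 CPM in Eed-labelled, 14.7, 17.6 and 14.1 CPM in Ezh2-labelled and 17.2, 15 and 19.5 CPM in Brd8-labelled cells, and all of these groups overlapped with NT. The differences were 0.48 ± 0.19 for Eed (95% interval 0.08 to 0.87, adjusted p = 0.0695), 0.05 ± 0.19 for Ezh2 (95% interval -0.34 to 0.44) and 0.19 ± 0.20 for Brd8 (95% interval -0.21 to 0.59). The Eed difference passed in DESeq2 (adjusted p = 0.0462) and without NT replicate 3 alone (0.72, adjusted p = 0.012). It did not pass without both libraries of low agreement (0.55, adjusted p = 0.081) or in a fit of the compared groups only (adjusted p = 0.233). Without these libraries the Ezh2 and Brd8 differences were 0.30 and 0.44 (adjusted p = 0.487 and 0.156).

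Lin28b at day 11 stood at 20.0, 15.4 and 16.7 CPM in NT, 24.9, 21.1 and 25.3 CPM in Eed-labelled and 26.1, 23.9 and 22.6 CPM in Ezh2-labelled cells. The groups did not overlap, with differences of 0.45 ± 0.13 (adjusted p = 0.0125) and 0.47 ± 0.13 (adjusted p = 0.021). Both calls were lost without the 2 libraries of low agreement (0.37 and 0.44, adjusted p = 0.128 and 0.0901). Singly, the Eed call was lost without NT replicates 2 or 3 or Eed-labelled replicate 1 (log2 0.37 to 0.42, adjusted p = 0.0509 to 0.0722). The Ezh2 call was lost without NT replicates 2 or 3 or Ezh2-labelled replicates 1 or 2 (log2 0.39 to 0.47, adjusted p = 0.0551 to 0.103). In fits of the compared groups only neither passed (adjusted p = 0.141 and 0.154).

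Trim71 at day 11 stood at 16.0, 26.4 and 14.8 CPM in NT and 24.3, 29.1 and 33.1 CPM in Eed-labelled cells, and NT replicate 2 lay within the Eed-labelled range. The difference was 0.58 ± 0.19 (adjusted p = 0.0182). It did not pass without NT replicates 1 or 3 or Eed-labelled replicate 3 (log2 0.44 to 0.48, adjusted p = 0.0955 to 0.135), or in a fit of the compared groups only (adjusted p = 0.108). Without both libraries of low agreement it was 0.33 (adjusted p = 0.351).

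Without these 2 libraries, 4 members remained called with Eed guides (Hmga2, Igf2bp1, Igf2bp2 and Igf2bp3), the same 4 with Brd8 guides, and Igf2bp1 with Ezh2 guides. The share of all tested genes called in that fit was not taken. The Eed differences were then 0.69 for Igf2bp1, 0.42 for Igf2bp2 and 0.37 for Igf2bp3, the Brd8 differences 0.56, 0.40 and 0.41, and the Ezh2 difference of Igf2bp1 0.45. Those 4 members with Eed and with Brd8 guides, and Igf2bp1 with Ezh2 guides, were also called in every other alternative run for them.

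Every gene fell between day 7 and day 11 in every guide group as well, 8 of 8 in each (of tested genes, 19.4% fell with Eed, 18.8% with Ezh2, 19.3% with Brd8 and 16.8% with Nr6a1 guides). The Hmga1 row with Nr6a1 guides (-1.26 ± 0.47) fell by the test on all libraries and was not called without Nr6a1-labelled day 7 replicates 2 or 3 or Nr6a1-labelled day 11 replicates 1 or 3 (log2 -1.35 to -1.18, adjusted p = 0.0794 to 0.174). The decline of Hmga2 was -1.10 ± 0.14 with Eed guides and -0.84 ± 0.14 with Brd8 guides, against -2.13 ± 0.15 in NT cells and -2.10 ± 0.18 with Nr6a1 guides. The day 11 difference from NT amounted to 70.0% of the NT decline of Hmga2 on the log2 scale with Brd8 guides, 58.0% with Eed guides and 31.5% with Ezh2 guides. For Igf2bp3 the same measure was 40.7%, 47.0% and 25.7%.

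For Lin28a it was 5.28%, 12.9% and 1.31%, and for Trim71 10.9%, 18.1% and 10.5%. For Lin28b it was 9.77%, 19.2% and 20.2%, and for Hmga1 57.6%, 67.9% and 43.1%. For Igf2bp1 it was 23.6%, 32.1% and 18.7%, and for Igf2bp2 32.9%, 40.5% and 22.5%. Without the 2 libraries of low agreement the shares in the same order were 11.2%, 13.96% and 7.52% for Lin28a, 6.62%, 10.6% and 6.18% for Trim71, 65.9%, 52.7% and 23.1% for Hmga2, and 38.9%, 34.8% and 23.8% for Igf2bp3. These shares are descriptions, and no difference between genes was tested. Both quantities in them use the same NT libraries of day 11. Of the 3537 genes that fell in NT cells, 37.8% were higher than NT at day 11 with Eed guides, 30.6% with Brd8, 17.4% with Ezh2 and 0.0848% with Nr6a1 guides.

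**Figure D3:**
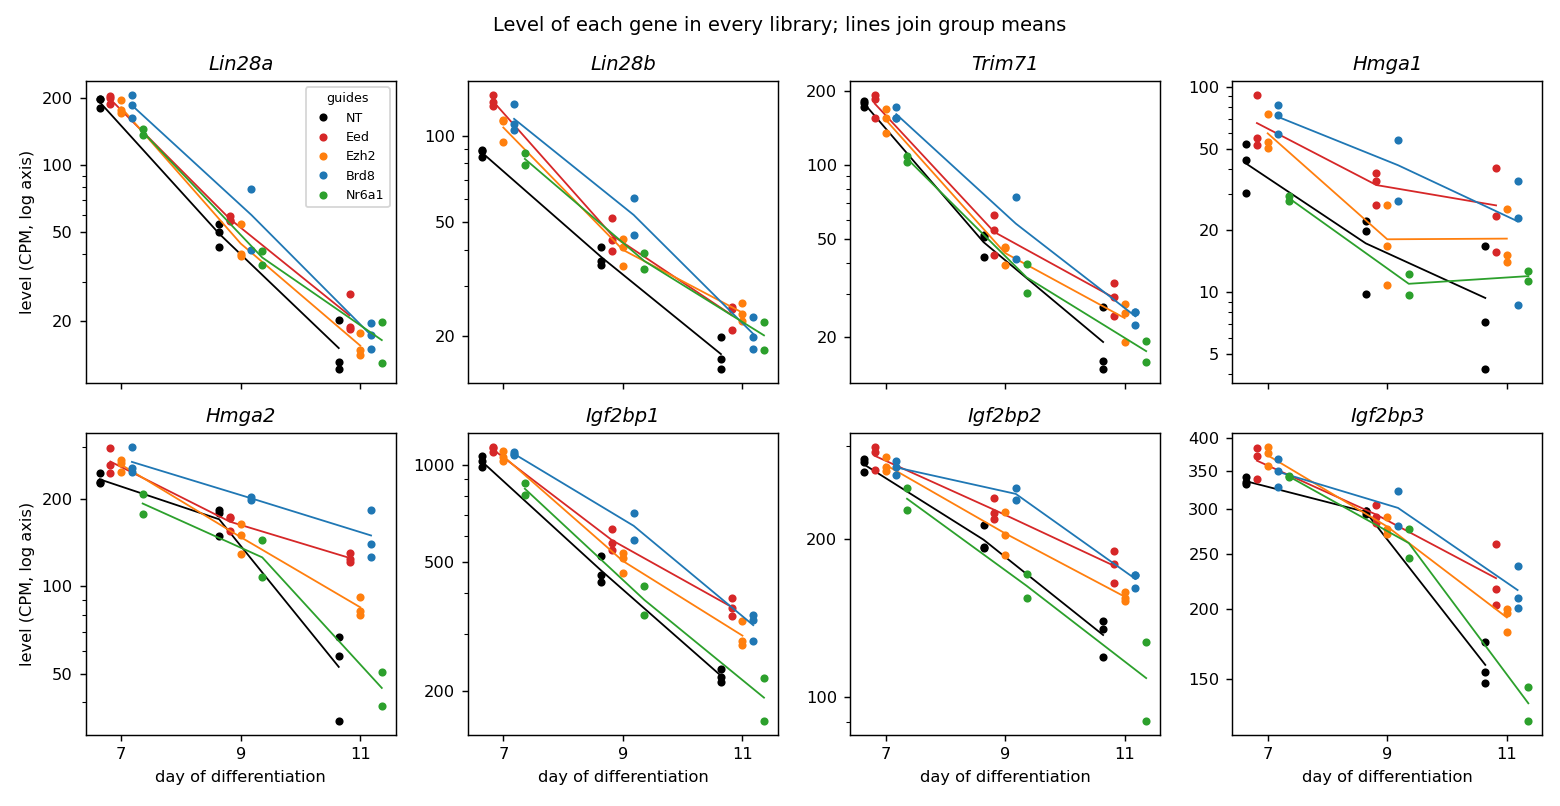
Level in CPM (vertical log axis, ranges differ between panels) of each gene against the day of differentiation, 1 point per library, with lines joining group means; points of a day are offset sideways by genotype. The NT line of Hmga2 drops to 52.9 CPM at day 11 while the Eed and Brd8 lines stay at 125 and 149.5 CPM, and all groups of Lin28a end between 15.1 and 21.2 CPM.

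Fewer members were called at the earlier days, and with Eed guides at day 7 the one called was Lin28b. At day 7 Lin28b stood at 89.2, 84.2 and 88.7 CPM in NT, 127, 139 and 131 CPM in Eed-labelled, 128, 105 and 109.9 CPM in Brd8-labelled and 95, 113 and 112 CPM in Ezh2-labelled cells. All 9 of these libraries lay above the NT libraries. It was the only member called with Eed guides at day 7 (0.60 ± 0.12, adjusted p = 0.00105, beside 2.9% of tested genes that were higher), and it passed in each of the 13 alternatives run. With Brd8 guides Lin28b differed by 0.39 ± 0.12 (adjusted p = 0.0525). The Hmga1 row at day 7 stood at 52.6, 43.9 and 30.5 CPM in NT, 52.0, 56.5 and 91.7 CPM in Eed-labelled and 73.2, 82.0 and 58.9 CPM in Brd8-labelled cells. In edgeR fits of the compared groups only it passed with Eed guides (0.64, adjusted p = 0.0281) and Brd8 guides (0.74, adjusted p = 0.00511). DESeq2 did not call it (adjusted p = 0.398 and 0.353).

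No member was called at day 7 with Brd8 guides in edgeR (1.3% of tested genes were higher), where 1 had an unadjusted p under 0.05 and DESeq2 called 1, Lin28b. None was called with Ezh2 guides either (0.151% of tested genes in either direction; 1 unadjusted, DESeq2 0).

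At day 9, Igf2bp1 was the member called with Eed guides (0.31 ± 0.09, adjusted p = 0.0421, beside 2.99% of tested genes), and it was not called without NT replicates 1 or 3 or Eed-labelled replicates 2 or 3 (log2 0.25 to 0.32, adjusted p = 0.159 to 0.226), or in a fit of the compared groups only (adjusted p = 0.0656). It stood at 432, 521 and 457 CPM in NT and 546, 631 and 574 CPM in Eed-labelled cells, ranges that did not overlap. Hmga2, in contrast to day 11, stood at 148, 183 and 178 CPM in NT and 155, 173 and 172 CPM in Eed-labelled cells at day 9 and differed by -0.03 ± 0.14 (95% interval -0.32 to 0.26).

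With Brd8 guides at day 9, 4 members were higher (7.72% of tested genes), namely Igf2bp1 (0.46 ± 0.10), Lin28b (0.49 ± 0.14), Hmga1 (1.26 ± 0.41) and Igf2bp2 (0.29 ± 0.09), with adjusted p of 0.00158, 0.0108, 0.0329 and 0.0319. This group has 2 libraries, and replicate 2 held the higher level of all 4, for example 45.1 and 60.9 CPM of Lin28b. Igf2bp1 was not called without Brd8-labelled replicate 2 (log2 0.31, adjusted p = 0.138), Lin28b without NT replicate 3 or Brd8-labelled replicate 2 (log2 0.25 to 0.45, adjusted p = 0.0507 to 0.432). Hmga1 was not called without NT replicates 1 or 3 or Brd8-labelled replicate 2 (log2 0.67 to 1.35, adjusted p = 0.0571 to 0.506), Igf2bp2 without NT replicates 1 or 3 or Brd8-labelled replicates 1 or 2 (log2 0.25 to 0.32, adjusted p = 0.0671 to 0.239). Without Brd8-labelled replicate 1, Lin28a (0.66, adjusted p = 0.0196) and Trim71 (0.61, adjusted p = 0.0391) passed as well. With Ezh2 guides at day 9 no member and no gene at all was called in edgeR (0 of 15204; 0 members at an unadjusted p under 0.05, DESeq2 0 members).

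The growth of these differences from day 7 to day 11 was tested as a difference of differences. With Eed guides it was 1.04 ± 0.20 for Hmga2 (adjusted p = 0.000926), 0.58 ± 0.13 for Igf2bp1 (adjusted p = 0.00448) and 0.38 ± 0.11 for Igf2bp3 (adjusted p = 0.0342), 3 members beside 4.01% of tested genes. With Brd8 guides the same 3 members passed, beside 2.98% of tested genes, at 1.29 ± 0.20 (adjusted p = 8.31e-05), 0.44 ± 0.13 (adjusted p = 0.0444) and 0.38 ± 0.11 (adjusted p = 0.0444).

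Only the Hmga2 values and Igf2bp1 with Eed guides passed in all 19 alternatives run for each. Igf2bp3 with Eed guides was lost in a fit of the compared groups only (adjusted p = 0.115), without the libraries of low agreement (0.26, adjusted p = 0.245) and without Eed-labelled day 7 replicate 2, NT day 7 replicates 1, 2 or 3, Eed-labelled day 11 replicate 3 or NT day 11 replicates 2 or 3 (log2 0.28 to 0.39, adjusted p = 0.0535 to 0.153). With Brd8 guides, Igf2bp1 was lost without Brd8-labelled day 7 replicates 1, 2 or 3, NT day 7 replicates 1, 2 or 3, Brd8-labelled day 11 replicates 1 or 3 or NT day 11 replicates 1 or 2 (log2 0.39 to 0.47, adjusted p = 0.0551 to 0.123). Igf2bp3 with Brd8 guides was lost without Brd8-labelled day 7 replicates 2 or 3, NT day 7 replicates 1, 2 or 3, Brd8-labelled day 11 replicates 2 or 3 or NT day 11 replicates 2 or 3 (log2 0.31 to 0.40, adjusted p = 0.0537 to 0.162). It was also lost without the libraries of low agreement (0.36, adjusted p = 0.061) and in a fit of the compared groups only (adjusted p = 0.0744). With DESeq2 size factors both were lost (adjusted p = 0.0603 for Igf2bp1 and 0.0613 for Igf2bp3). None of these values changed direction. Trim71 was gained without NT day 11 replicate 2, at 0.89 with Eed and 0.80 with Brd8 guides (adjusted p = 0.0194 and 0.0496). Igf2bp2 with Eed guides was gained without Eed-labelled day 11 replicate 1 or NT day 11 replicate 3 (0.44 and 0.43, adjusted p = 0.0329 and 0.042). Lin28b, the member called at day 7, was not called here. Its change of the difference was -0.15 ± 0.18 with Eed guides (95% interval -0.52 to 0.22) and -0.16 ± 0.18 with Brd8 guides (95% interval -0.53 to 0.21).

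No such growth was called with Ezh2 guides (1.41% of tested genes in either direction; 3 members at an unadjusted p under 0.05 in edgeR, DESeq2 0) or Nr6a1 guides (0.112%; 2 members, DESeq2 0).

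Between guide groups at day 11, Hmga2 was the only member called in edgeR. It was higher with Eed than with Ezh2 guides by 0.56 ± 0.14 (adjusted p = 0.0251, 1 member beside 1.53% of tested genes higher) and higher with Brd8 than with Ezh2 guides by 0.82 ± 0.14 (adjusted p = 0.012, beside 0.0132% of tested genes, 2 genes in all). The lowest Eed- and Brd8-labelled libraries lay above the highest Ezh2-labelled library. For Eed against Ezh2, 7 of 8 members were higher and 5 had an unadjusted p under 0.05 in edgeR. In 5 members every Eed-labelled library lay above every Ezh2-labelled library, as in 10.9% of tested genes. DESeq2 also called Igf2bp1 (adjusted p = 0.0257) and Igf2bp3 (adjusted p = 0.0448) there. For Brd8 against Ezh2, 1 member had an unadjusted p under 0.05 in edgeR, and DESeq2 called 1. The Eed against Ezh2 call was lost without Eed-labelled replicates 2 or 3 or Ezh2-labelled replicates 1, 2 or 3 (log2 0.52 to 0.62, adjusted p = 0.05 to 0.125). The Brd8 against Ezh2 call was lost without Brd8-labelled replicate 1 or Ezh2-labelled replicates 1 or 3 (log2 0.65 to 0.88, adjusted p = 0.0746 to 0.439).

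No member differed between Brd8 and Eed guides in edgeR (0.342% of tested genes; 0 members at an unadjusted p under 0.05, DESeq2 0). The Hmga2 difference there was 0.26 ± 0.14, with a 95% interval of -0.03 to 0.55, and that of Igf2bp1 was -0.19 ± 0.09, with an interval of -0.38 to 0.00.

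Nr6a1-labelled cells mostly held less of these transcripts at days 7 and 9, but no difference was called. At day 7 Trim71 stood at 109 and 103 CPM against 173, 179.7 and 183 CPM in NT, and Lin28a at 137 and 146 CPM against 198, 199 and 180.4 CPM. In both genes the 2 Nr6a1-labelled libraries lay below all 3 NT libraries. The differences were -0.75 ± 0.19 (adjusted p = 0.106) and -0.45 ± 0.18 (adjusted p = 0.51). The Trim71 difference passed in DESeq2 (adjusted p = 0.0166) and in a fit of the compared groups only (adjusted p = 0.00222), where that of Lin28a passed as well (adjusted p = 0.0244).

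At day 7, 0 members were called with Nr6a1 guides in edgeR (0.145% of tested genes), 4 had an unadjusted p under 0.05 and DESeq2 called 1. At day 9, 0 were called (0.151%), 5 had an unadjusted p under 0.05 and DESeq2 called 0. At both days 6 of the 8 members had both Nr6a1-labelled libraries below all 3 NT libraries, as had 12.8% of tested genes at day 7 and 13.4% at day 9. All 8 values were below NT at day 9, from -0.67 ± 0.45 for Hmga1 to -0.05 ± 0.14 for Lin28b. At day 11 Hmga2 differed by -0.24 ± 0.17 (95% interval -0.58 to 0.09), an interval that lies below those with Eed, Brd8 and Ezh2 guides. Igf2bp2 at day 11 passed without Nr6a1-labelled replicate 3 (-0.54, adjusted p = 0.00898).

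Levels were compared between genes only per kilobase of annotated exons. In NT cells at day 7, Igf2bp1 stood at 106 ± 4.19 CPM per kilobase (SD, n = 3), Lin28a at 48.2 ± 2.63, Igf2bp3 at 41.1 ± 0.583, Igf2bp2 at 37.3 ± 1.15, Hmga2 at 34.4 ± 1.58, Trim71 at 19.1 ± 0.547 and Lin28b at 9.64 ± 0.303. At day 11 the order was Igf2bp1 at 23.0 ± 1.12, Igf2bp3 at 19.5 ± 1.71, Igf2bp2 at 17.7 ± 1.41, Hmga2 at 7.82 ± 2.45, Lin28a at 3.78 ± 1.09, Trim71 at 2.04 ± 0.687 and Lin28b at 1.91 ± 0.260. With the length of the longest transcript in place of all exons, Igf2bp3 came first at day 11 at 36.6, before Igf2bp1 at 26.6 and Igf2bp2 at 26.5. Lin28a went from the second to the fifth place of these 7, but with the longest transcript it held the fifth place at both days. The ranges of Igf2bp2 and Hmga2 overlapped at day 7, as did those of Igf2bp3 and Igf2bp2 and those of Trim71 and Lin28b at day 11.

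Within families the makeup shifted. Lin28b made up 16.7 ± 1.05% of the Lin28 pair per kilobase in NT cells at day 7, 25.3 ± 1.77% at day 9 and 34.3 ± 6.92% at day 11 (SD, n = 3). Igf2bp1 made up 57.4 ± 0.983% of the 3 Igf2bp transcripts at day 7, 43.4 ± 1.80% at day 9 and 38.2 ± 2.25% at day 11, while Igf2bp2 went from 20.3 ± 0.824% to 29.4 ± 1.06%. The 3 days did not overlap in NT for either Igf2bp share. The Lin28b share overlapped between days 9 and 11. At day 7 the Lin28b share was 22.7 ± 0.739% with Eed, 21.3 ± 0.719% with Brd8 and 20.6 ± 1.16% with Ezh2 guides (n = 3) and 20.6 ± 1.78% with Nr6a1 guides (n = 2), and every library of these 4 groups lay above the NT libraries. At day 11 with Eed guides it was 33.4 ± 3.87%, within the NT range.

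**Figure D4:**
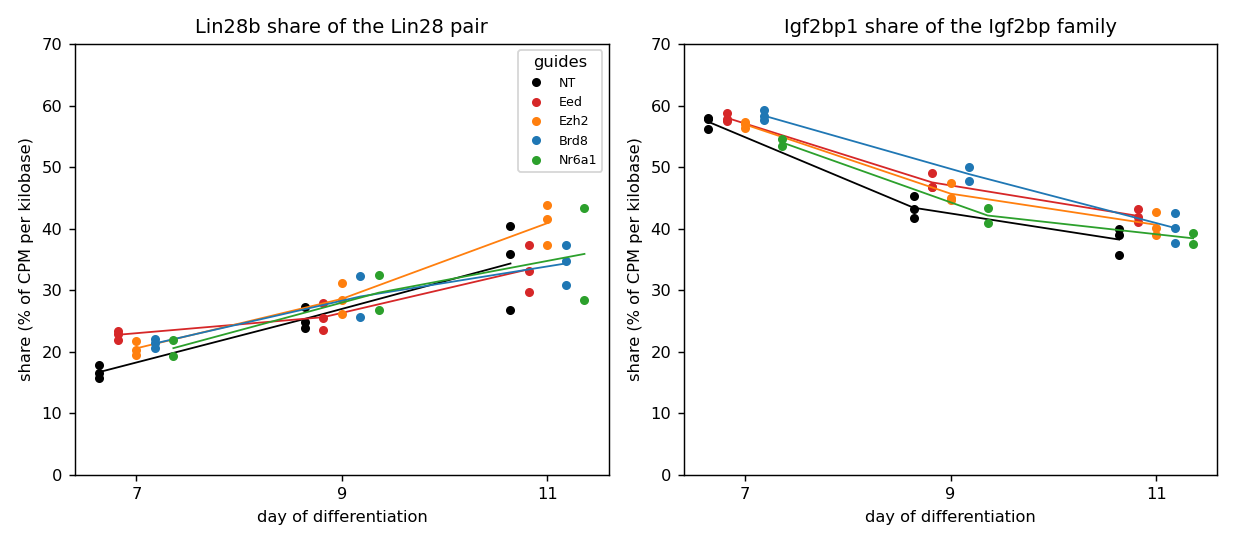
Share per kilobase (vertical axis, percent) of Lin28b in the Lin28 pair (left) and of Igf2bp1 among the 3 Igf2bp transcripts (right) against the day of differentiation, 1 point per library, lines joining group means, with points of a day offset sideways by genotype. In NT cells the Lin28b share goes from 16.7% to 34.3% and the Igf2bp1 share from 57.4% to 38.2%.

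The members resembled each other across the 15 groups, but each was still closer to some gene outside the set. Pearson's r between group means of log2(CPM + 0.5) ranged from 0.857 to 0.991 over the 21 pairs without Hmga1, and from 0.787 to 0.893 for pairs with the Hmga1 row. The points share libraries and days, so these values are descriptions. Pairs of other tested genes were not measured, so the likeness is not shown to be particular to the members. Igf2bp1, for example, reached 0.983 with Trim71, its closest member, and 0.996 with Raly. Among other genes of at least 5 CPM, the closest to Lin28a were Stk35 (r = 0.991), Nr6a1 (0.991) and Prtg (0.991), and the closest to Trim71 were Baz1b (0.996), Prtg (0.995) and Cherp (0.995). The closest to Hmga2 was Hs3st3b1 (0.984), which was also the closest to Igf2bp3 (0.989). Next to Igf2bp2 stood Fndc3c1 (0.993), next to Igf2bp1 Raly (0.996), next to Lin28b Gmps (0.992) and next to the Hmga1 row Gar1 (0.989).

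Other genes of the pathway were read from lists that share some genes, so their counts are not separate. Sall4, Prtg, Mycn, Cbx2 and Arid3b are both other let-7 targets and early progenitor genes. Igf1r, Insr, Irs2 and Myc are in the lists of let-7 targets and the IGF axis. Nfia is in those of late progenitor genes and TRIM71 repressed transcripts, and Ago2 in those of let-7 processing and TRIM71. Beside the counts that follow, 23.3% of tested genes fell and 21.9% rose in NT cells from day 7 to day 11, and at day 11 13.3% were higher and 10.6% lower with Eed, 10.3% and 7.48% with Brd8 and 5.22% and 2.7% with Ezh2 guides. Of 17 let-7 processing genes, 9 fell and 1 rose in NT cells from day 7 to day 11, with a list median of -0.25 on the log2 scale against -0.00208 for all tested genes. Khsrp, which promotes let-7 processing, changed by -0.68 ± 0.08 (adjusted p = 4.83e-09), Xpo5, the exporter of precursors, by -0.45 ± 0.09 and Drosha, the nuclear processing enzyme, by -0.33 ± 0.07. These were changes of at most 1.60-fold for the 4 genes with the lowest adjusted p. The list pools genes of different roles, so its counts and median give no direction of let-7 processing, which was not measured. At day 11 this list held 1 call lower with Eed guides (Ago3, -0.70 ± 0.15), 1 higher with Brd8 guides (Khsrp, 0.26 ± 0.08) and 0 with Ezh2 guides.

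Of 32 tested other let-7 targets, 19 fell and 5 rose in NT cells (list median -0.33). Prtg changed by -3.87 ± 0.17, Fignl2 by -2.23 ± 0.12, Rrm2, a subunit of ribonucleotide reductase, by -2.15 ± 0.14 and Sall4 by -2.18 ± 0.18. At day 11, 9 of the 32 were higher and 2 lower with Eed guides, 9 and 1 with Brd8, and 7 and 1 with Ezh2 guides (13.3% of tested genes were higher with Eed, 10.3% with Brd8 and 5.22% with Ezh2). Ccnd1, a G1 cyclin, was higher by 2.59 ± 0.21, 2.66 ± 0.21 and 2.09 ± 0.21 with these guides (adjusted p = 3.28e-11, 9.4e-11 and 3.53e-08).

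The 7 other genes with 4 or more seed matches were Nr6a1 (8 matches), Mcf2l (7), Nudt12 (7), Trim6 (6), D10Wsu102e, Hic2 and Zbtb37 (4 each), of which 4 fell and 2 rose in NT cells. On the log2 scale Nr6a1 fell by 2.31 and Mcf2l rose by 1.15. Over the tested genes with a 3′ UTR the median NT change was -0.01 for 12345 genes without a match, 0.04 for 1318 with 1, -0.02 for 160 with 2 and -0.16 for 25 with 3 or more, members included. The 4 members with 4 matches fell by 2.13 (Hmga2) to 3.23 (Trim71).

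Of 12 other early progenitor genes, 7 fell and 0 rose in NT cells, and of 12 late progenitor genes 12 rose, beside 21.9% of tested genes (list medians -1.13 and 2.69). Ptprz1, a receptor phosphatase of radial glia, rose by 3.80 ± 0.16 and Nfib, a nuclear factor I gene, by 3.82 ± 0.23. Late genes were lower than NT at day 11 in 9 of 12 with Eed (10.6% of tested genes were lower), 8 with Brd8 (7.48%) and 6 with Ezh2 guides (2.7%). Of the early genes, 5 were higher with Eed guides, 2 with Brd8 and 1 with Ezh2, and 1, 3 and 2 were lower. Mycn, a proto-oncogene and let-7 target, was higher by 1.00 ± 0.12, 0.80 ± 0.12 and 0.53 ± 0.12.

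Among transcripts known to be bound by IGF2BP proteins or to belong to the IGF axis, 8 of 18 rose and 2 fell in NT cells (list median 0.22). Igf2, a growth factor, rose by 1.24 ± 0.18 and Igfbp5, an IGF carrier protein, by 3.43 ± 0.17. Igfbp5 was lower at day 11 with Eed guides (-1.09 ± 0.16), Brd8 guides (-0.87 ± 0.16) and Ezh2 guides (-0.66 ± 0.16). Of 9 transcripts reported as repressed by TRIM71, 4 rose and 3 fell in NT cells. Cdkn1a, a cell cycle inhibitor, fell by 1.63 in NT and was higher at day 11 with Eed guides (1.58 ± 0.13), while Nfia rose by 2.51 ± 0.17 in NT and was lower with Eed guides (-1.10 ± 0.16).

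Of 9 other architectural HMG genes, 7 fell and 1 rose in NT cells (list median -0.65). Hmgb2 fell by 1.60 (adjusted p = 1.91e-14) and was higher at day 11 with Eed (1.06 ± 0.11), Brd8 (0.88 ± 0.11) and Ezh2 guides (0.71 ± 0.11). At day 11, 4 of the 9 were higher with Eed guides, 4 with Ezh2 and 3 with Brd8, while 1, 0 and 1 were lower.

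Proliferation genes changed in the same comparisons. All 15 listed fell in NT cells (list median -1.65), and at day 11 they were higher in 15 of 15 with Eed guides, 15 with Brd8 and 13 with Ezh2, with list medians of 0.85, 0.76 and 0.64 against 0.02, 0.02 and 0.03 for all tested genes. At day 7 with Eed guides 8 of 15 were higher, beside 2.9% of tested genes. Mcm3, a subunit of the replicative helicase, fell by 2.34 in NT. The part of these genes in the members' results was not tested.

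Markers of other cell types moved as well. The summed level of 8 endoderm and epithelium markers was 126 to 195 CPM in Eed-labelled libraries at day 11 (all 8 detected), 8.6 to 43.3 CPM with Brd8 guides and 19.7 to 31.9 CPM in NT (7 or 8 detected). The 8 mesoderm and muscle markers summed to 54.9 to 61.9 CPM with Eed guides (5 to 8 detected) and 51.3 to 88.0 CPM with Brd8 guides (7 or 8), against 13.5 to 28.6 CPM in NT (3 to 7) and 24.7 to 34.1 CPM with Ezh2 guides. Of these Actc1, a muscle actin, stood at 30.5 ± 5.95 CPM with Eed, 45.1 ± 13.6 with Brd8 guides and 0.216 ± 0.375 in NT (SD, n = 3). Actc1 alone thus made up a large part of the Eed and Brd8 sums. Myod1 was at 0 in all NT libraries. The 8 neuron markers summed to 3965 to 4227 CPM with Eed guides and 4563 to 4959 CPM in NT. At day 7 they summed to 2132 to 2628 CPM with Eed, 2357 to 2780 CPM with Brd8 and 2885 to 3275 CPM with Ezh2 guides. NT libraries then held 3472 to 3632 CPM and Nr6a1-labelled libraries 3947 to 4301 CPM. At day 11 the 5 neural crest markers summed to 299 to 332 CPM with Eed, 338 to 446 CPM with Brd8 and 167 to 302 CPM with Ezh2 guides. In NT they summed to 155 to 183 CPM, and all 5 were detected in each. At day 7 the neural crest sums were 137 to 187 CPM with Eed, 80.6 to 205 CPM with Brd8 and 67.5 to 123 CPM with Ezh2 guides. They were then 25.1 to 37.2 CPM in NT and 23.5 to 35.1 CPM with Nr6a1 guides. Of the 10 embryonic stem cell markers, 8 to 10 were detected with Eed guides and 9 or 10 in NT at day 11. They then summed to 56.0 to 78.5 CPM with Eed and 54.2 to 74.7 CPM with Nr6a1 guides, against 38.1 to 49.2 CPM in NT. With Brd8 and Ezh2 guides the day 11 sums were 28.5 to 52.6 and 25.7 to 57.2 CPM. At day 7 they were 40.5 to 55.6 CPM with Eed guides and 66.0 to 112 CPM in NT. The 9 glial markers, of which Gfap and S100b were at 0 with Eed guides, summed to 246 to 283 CPM with Eed, 316 to 399 CPM with Brd8 and 300 to 406 CPM with Ezh2 guides, against 473 to 589 CPM in NT at day 11. With Nr6a1 guides these glial markers summed to 624 to 779 CPM at day 11. The 9 neural progenitor markers summed at day 11 to 1813 to 1988 CPM with Eed and 2002 to 2178 CPM with Brd8 guides, against 2300 to 2438 CPM in NT. The day 11 sums with Ezh2 guides (2006 to 2241 CPM) and Nr6a1 guides (1969 to 2090 CPM) also lay below NT. Their part in the differences of the 8 genes was not tested.

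RefSeq promoters (GRCm38.p6, 250 bases before to 50 after the start site) were at hand for 7 members. The Lin28b promoter (chr10:45470152-45470451, minus strand) lies inside the annotated gene, whose 5′ end is at chr10:45486395 in GENCODE M21. The motif CACGTG, which reads the same on both strands, occurred in those of Lin28b (1 match) and Igf2bp3 (2, of which 1 after the start site), and in 7.15% of 32851 promoters. The nuclear receptor motif AGGTCA, searched on both strands, occurred in none of the 7 and in 16.3% of all. The 30 bases around the motif upstream of each start site are shown, motif in capitals (Lin28b, chr10:45470233-45470262, 49 bases before the start site; Igf2bp3, chr6:49214960-49214989, 23 bases before; both minus strand).
Lin28b promoter: aattgacagagtCACGTGtgctcaggggcc
Igf2bp3 promoter: gctgggattcctCACGTGagacgttgattt

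The promoters differed in CpG content, against a median of 7 CpG in 300 bases over all promoters. Lin28b, whose window lies inside the gene, held 8, Lin28a 10, Igf2bp3 25 and Igf2bp2 47. Hmga2 held 12 and Trim71 19. No relation to the measured changes was tested.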

How the data were processed

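Total RNA was column-purified and made into directional, ribosomal RNA depleted libraries, per the labels' protocols, although the labels also call the source genomic. The table deposited by the authors holds estimated counts per gene symbol and library, without normalization. Per the submitters' processing notes mm10 and DESeq2 were used; aligner, quantifier and annotation: not given in the sources used here. Values were rounded, since 29525 were not whole. In R 4.3.3, edgeR 4.0.16 filtered low counts by group (filterByExpr), scaled libraries by TMM and fitted a quasi-likelihood model of 15 group means to all 41 libraries (biological coefficient of variation 0.182). Tests were two-sided, adjusted by Benjamini and Hochberg over 15204 genes within each of 26 comparisons, threshold 0.05. Fold changes are given with their SE. Named genes were the members, their nearest genes by correlation, and the genes of lowest adjusted p in each list. The script was tested on simulated counts. Alternatives were DESeq2 1.42.0 and its size factors, no filter, a replicate block, fits of the compared groups only, and fits without Rn45s, without the 2 libraries of low agreement or without each library. The members and lists were chosen with earlier results of these data known.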

Additional observations from a re-analysis of the deposited data

Results flagged for a closer look

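In 6 results the difference from NT changed between days by a test of that change itself, the difference at day 11 minus that at day 7. With Eed guides these were Hmga2 (1.04 ± 0.20, adjusted p = 0.000926), Igf2bp1 (0.58 ± 0.13, adjusted p = 0.00448) and Igf2bp3 (0.38 ± 0.11, adjusted p = 0.0342). With Brd8 guides they were Hmga2 (1.29 ± 0.20, adjusted p = 8.31e-05), Igf2bp1 (0.44 ± 0.13, adjusted p = 0.0444) and Igf2bp3 (0.38 ± 0.11, adjusted p = 0.0444). Of tested genes, 4.01% passed upward with Eed guides and 2.98% with Brd8 guides. Only the Hmga2 values and Igf2bp1 with Eed guides passed in all 19 alternatives. Igf2bp3 with Eed guides passed in 10 of 19, Igf2bp1 with Brd8 guides in 8 and Igf2bp3 with Brd8 guides in 7. Both guide groups were set against the same NT libraries. At day 7 Hmga2 stood at 233 ± 10.7 CPM in NT, 268 ± 27.3 CPM in Eed-labelled and 267 ± 29.6 CPM in Brd8-labelled cells (SD, n = 3), and at day 11 at 52.9 ± 16.6, 125 ± 4.51 and 149.5 ± 29.2 CPM.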

How the results depend on the processing

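The direction and the call of all 8 declines in NT cells from day 7 to day 11, and of 4 members with Eed, 4 with Brd8 and 1 with Ezh2 guides at day 11, held in each of the 13 alternatives run for them. The number of members called changed in the comparisons that follow. No share of all tested genes was taken in the alternatives, so these counts have no background beside them. With DESeq2 size factors it was 1 for the change of the Brd8 effect and 1 for Brd8 at day 7. In the DESeq2 Wald test it was 1 for Brd8 at day 7, 3 for Eed against Ezh2, 1 for Nr6a1 at day 7, 8 for Eed at day 11, 3 for Brd8 at day 9, 4 for the change of the Eed effect and 7 for the Nr6a1 decline, and it gave no adjusted p for 3 member values. Without the low-count filter it was 2 for Brd8, Eed and Nr6a1 at day 7, 2 for Eed and 3 for Nr6a1 at day 9, 8 for Eed, 6 for Brd8 and 5 for Ezh2 at day 11, 4 for Eed against Ezh2, 8 for NT from day 9 to day 11, and 5, 2 and 1 for the changes of the Eed, Ezh2 and Nr6a1 effects. In fits of the compared groups only it was 2 for Brd8, Eed and Nr6a1 at day 7, 0 for Eed at day 9, 5 for Eed, 4 for Brd8 and 2 for Ezh2 at day 11, 2 for the change of the Eed and of the Brd8 effect, and 8 for NT from day 7 to day 9. Without the 2 libraries of low agreement it was 4 for Eed, 4 for Brd8 and 1 for Ezh2 at day 11, 2 for the change of the Eed and of the Brd8 effect, and 8 for NT from day 7 to day 9. Without Rn45s it was 4 for the change of the Eed effect.

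Replicate numbers recur in the labels. Over the tested genes same-numbered libraries showed little joint deviation (correlations of -0.0851 to 0.104 over the comparisons). In groups this small these values cannot decide if same-numbered libraries share a culture or batch. A replicate block gave 8 members for Eed at day 11, 4 for the change of the Eed and of the Brd8 effect, 7 for the Nr6a1 decline, 2 for Eed against Ezh2 and 1 for Nr6a1 at day 7 (Trim71, adjusted p = 0.00222). The block also gained Lin28a with Eed guides at day 11 (adjusted p = 0.0436) and the change of Igf2bp2 with Eed and Brd8 guides, and lost the Hmga1 decline with Nr6a1 guides (adjusted p = 0.0535).

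Leaving out 1 library at a time gave 1 to 2 members for the change of the Brd8 effect, 0 to 1 for Brd8 against Ezh2, 0 to 5 for Brd8 at day 9, 0 to 1 for Eed against Ezh2, 0 to 1 for Eed at day 9, 1 to 4 for Ezh2 at day 11, 0 to 1 for Nr6a1 at day 11, 4 to 6 for Brd8 and 5 to 7 for Eed at day 11, 2 to 4 for the change of the Eed effect, 7 to 8 and 6 to 7 for the later and the earlier NT step, and 7 for the Nr6a1 decline. A group reduced to 1 library took its spread from the shared model. Some differences that were not called in all libraries changed sign when 1 library was left out, and their log2 ranges follow. Lin28a ranged over -0.135 to 0.0338 (Brd8 at day 7), -0.00499 to 0.0713 (Eed at day 7), -0.251 to 0.660 (Brd8 at day 9), -0.0809 to 0.297 (Ezh2 at day 11) and -0.211 to 0.406 (Nr6a1 at day 11). For Lin28b the values ran over -0.145 to 0.0419 (Nr6a1 at day 9) and -0.0697 to 0.0550 (Eed against Ezh2). Trim71 gave -0.0678 to 0.0847 (Eed at day 7), -0.237 to 0.608 (Brd8 at day 9), -0.00222 to 0.264 (Eed at day 9), -0.110 to 0.123 (Brd8 against Ezh2) and -0.272 to 0.186 (Nr6a1 at day 11). Hmga1 ranged over -0.317 to 0.292 (Ezh2 at day 9), -0.177 to 0.687 (Brd8 against Ezh2) and -0.719 to 0.175 (Brd8 against Eed). For Hmga2 the values ran over -0.194 to 0.232 (Nr6a1 effect change) and -0.117 to 0.0283 (Eed at day 9). Igf2bp1 gave -0.185 to 0.262 (Nr6a1 effect change). Igf2bp2 ranged over -0.0430 to 0.00379 (Brd8 at day 7), -0.0278 to 0.0156 (Ezh2 at day 7), -0.327 to 0.172 (Nr6a1 effect change) and -0.0321 to 0.104 (Ezh2 at day 9). For Igf2bp3 the values ran over -0.0853 to 0.124 (Brd8 at day 9), -0.0464 to 0.00658 (Eed at day 9) and -0.143 to 0.0398 (Brd8 against Eed). Other alternatives turned Trim71 with Eed guides at day 7 to 0.00900 (DESeq2 size factors) and 0.00953 (DESeq2 test), and Igf2bp2 with Ezh2 guides at day 7 to 0.00379 and 0.00366 by the same 2, 0.00220 without the filter and 0.00210 without Rn45s. Without the libraries of low agreement the change of the Nr6a1 effect turned to -0.19 for Hmga2, and Brd8 against Eed to 0.18 for Hmga1 and 0.0438 for Igf2bp3. The cause of these changes was not tested.

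Levels per kilobase of the longest transcript in NT cells at days 7 and 11 were 61.2 and 13.9 for Hmga2, 122 and 26.6 for Igf2bp1, 55.8 and 26.5 for Igf2bp2, 77.2 and 36.6 for Igf2bp3, 16.2 and 3.21 for Lin28b, and 54.9 for Lin28a at day 7. The shares became 22.8% and 43.3% for Lin28b, 47.8% and 29.7% for Igf2bp1, 21.9% for Igf2bp2 at day 7, and 74.5% and 76.5% for Hmga2 beside Hmga1. In depth, 3 counts correspond to 0.0748 to 0.370 CPM in these libraries, under the lowest member level in any of them.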
